A study of Juglans cathayensis with 6 samples.

Results

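The genes described here are those of the husk transcriptome whose main description names an ABC transporter, a DETOXIFICATION protein or a MATE efflux protein, leaving out 6 genes described as ABC transporter G family member 11. They number 136 of the 39234 assembled genes in the table. ABC (ATP-binding cassette) proteins use ATP to move lipids, hormones, metal complexes, glutathione conjugates and other secondary metabolites across membranes. MATE (multidrug and toxic compound extrusion) proteins, called DETOXIFICATION in Arabidopsis, move organic compounds against a gradient of protons or sodium, often into the vacuole or out of the cell. In plant cells phenolic compounds are largely stored in the vacuole, apart from the oxidases that darken them once a tissue is cut.

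Brown husk and white husk of *Juglans cathayensis*, the Chinese walnut, were each sequenced in 3 libraries. The study asked about enzymatic browning. The colour is that of the freshly cut husk, the colours belong to different varieties, and all 6 libraries carry a time label of 35 days without the event from which it was counted. The labels give no special treatment and name no tree for any library. Variety and colour therefore cannot be told apart.

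Values are TPM, a length-normalized relative abundance, and keep no read depth, so no counting interval can be given. White replicate 2 stood apart, with 28349 genes at 1 TPM or more, against 33146 to 35240 in the other libraries of either colour. It was also the lowest of the 6 libraries for 74 of the 133 transporter genes tested (55.6%), and for 44.4% of all tested genes. Of 42 photosystem and light-harvesting genes, which mark green tissue such as husk, none passed the test, and their summed TPM was 3758 to 7005 in brown and 5782 to 7035 in white libraries. Both listed seed markers were oleosin-like genes with a summed TPM of 12.3 to 23.9 in brown and 36.2 to 52.0 in white libraries, and 1 of them fell, or none without white replicate 2 and both with TMM factors. Of 6 markers of lignifying or vascular tissue 1 rose, with a summed TPM of 18.6 to 19.96 in brown and 17.1 to 21.7 in white libraries. Over all tested genes 3.83% rose and 2.17% fell. No marker of these 3 lists was at 0 in all libraries. In these whole-husk samples, fewer cells of a type and less RNA per cell cannot be told apart, and the part of these markers in the results was not tested.

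Brown husk differed from white husk in few of these genes. Of the 133 transporter genes tested, 1 was higher in brown husk (0.752%) and 1 was lower (0.752%) at an adjusted p under 0.05 (limma across all genes, Benjamini-Hochberg). Over all 37829 tested genes, 1450 were higher (3.83%) and 819 lower (2.17%), or 1328 and 1203 with TMM factors and 1259 and 1275 with quantile normalization. The gene that rose is an ABC transporter C family member 3 gene, and the one that fell is a short ABCC10-like fragment. Without white replicate 2, 4 transporter genes were higher and 4 lower, and both genes were again among them. TMM factors gave 3 higher and 4 lower, quantile normalization 4 and 4, both again with these genes among them.

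The other 131 genes tested did not pass, which does not show that they were equal in the 2 varieties. At an unadjusted p under 0.05, 20 transporter genes were higher (15.0%) and 7 lower (5.26%), against 14.7% and 6.79% of all genes. The lowest brown library lay above the highest white library for 29 transporter genes (21.8%, against 20.2% of all genes). The highest brown library lay below the lowest white library for 9 (6.77%, against 8.85%). The log2 fold change was above 0 in 91 transporter genes (68.4%), against 64.3% of all genes. Log2 fold changes are brown minus white, taken after adding 1 TPM, and their median was 0.26 for the transporter genes and 0.19 for all genes. Without white replicate 2 these medians were 0.10 and 0.06, with TMM factors 0.09 and 0.03, and with quantile normalization 0.09 and -0.01. The median of the transporter genes thus lay slightly above that of the whole table in each of these settings. These differences were not tested.

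**Figure D1:**
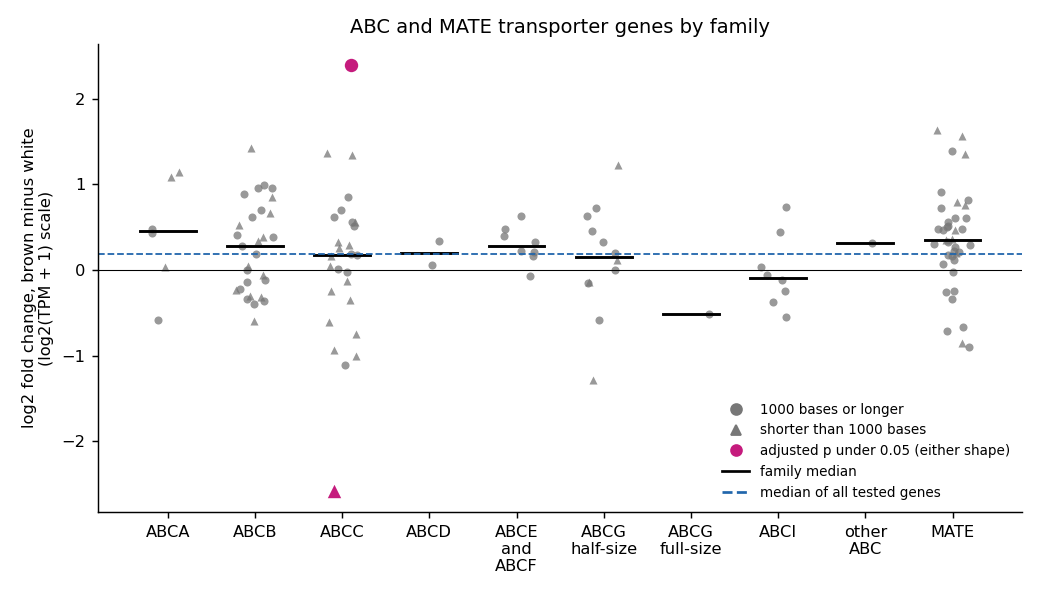
Log2 fold change (brown minus white, log2(TPM + 1) scale, vertical axis) of each of the 133 tested genes, by family (horizontal axis). Circles are genes of 1000 bases or longer, triangles shorter ones, black bars the family medians and the dashed line the median of all tested genes, 0.19. Most points lie between -1 and 1, and the 2 genes past the threshold, at 2.39 and -2.57, are both ABCC.

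Many of these genes are pieces. Lengths ran from 217 to 6370 bases, and 47 of the 136 genes were shorter than 1000 bases, none of them ABCI genes. That is less than the coding length of a whole MATE protein, or of an ABC transporter other than the single-subunit ABCI kind. An assembly cluster, the set of genes that the assembler tied together, held more than 1 of these genes in 18 cases, covering 47 genes. The largest, TRINITY_DN14791_c0, held 8 genes described as ABCB4, ABCB11 or ABCB21. In such a cluster members of a family, alleles and pieces of 1 gene cannot be told apart, so the TPM of each is uncertain. The median log2 fold change was 0.27 in the 88 tested genes of 1000 bases or longer and 0.26 in the 45 shorter ones.

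The deposited protein domain names, which did not enter the choice of genes, were of an ABC or MATE domain for 119 of the 121 genes that had one. An ABCF4-like gene (TRINITY_DN14035_c0_g1) carried PAPA-1, a domain of chromatin remodelling proteins, and a DETOXIFICATION 42-like gene (TRINITY_DN13672_c1_g1) carried a polysaccharide synthesis domain. A further gene (TRINITY_DN12601_c0_g2) is described as protein ABC transporter 1, mitochondrial, a name borne in Arabidopsis by a kinase-like protein of ubiquinone synthesis that is no ATP-binding cassette transporter. It had 25.3, 27.8 and 26.7 TPM in brown husk and 23.9, 19.2 and 20.7 TPM in white husk. These genes are kept in all counts.

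ABCC proteins, also called multidrug resistance-associated proteins, carry glutathione conjugates and other large anions, mostly into the vacuole. With 27 genes tested, they held both genes past the threshold. ABC transporter C family member 3 (TRINITY_DN16015_c1_g1, 4954 bases), whose Arabidopsis counterpart transports glutathione conjugates and chlorophyll breakdown products, had 81.8, 94.2 and 86.8 TPM in brown husk. In white husk it had 26.9, 6.06 and 23.4 TPM in replicates 1, 2 and 3. All 3 brown libraries lay above all white ones. The means were 87.6 ± 6.26 TPM in brown and 18.8 ± 11.2 TPM in white husk (SD, n = 3 each). The log2 fold change was 2.39 with an SE of 0.48 (limma adjusted p = 0.0323), and each ± after a log2 fold change below is likewise an SE.

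Leaving out the low white replicate 2 gave ABCC3 a log2 fold change of 1.76 ± 0.11 (limma adjusted p = 0.00270). The call was lost without white replicate 3 (limma adjusted p = 0.0613) and without brown replicate 1, 2 or 3 (adjusted p = 0.0849, 0.118 and 0.110), while the log2 fold change stayed between 2.34 and 2.66. A further 2 genes with this description are short. TRINITY_DN10104_c0_g1 (308 bases) had 26.8, 23.0 and 20.2 TPM in brown husk and 13.4, 4.09 and 10.7 TPM in white husk (log2 fold change 1.35 ± 0.38, limma adjusted p = 0.0869). TRINITY_DN10216_c0_g1 (740 bases), ABCC3-like and given here for its name, had 6.69, 15.4 and 21.6 TPM in brown husk and 5.21, 3.01 and 5.64 TPM in white husk (log2 fold change 1.37 ± 0.42, limma adjusted p = 0.111). In both genes the brown libraries lay above the white ones, though brown replicate 1 of TRINITY_DN10216_c0_g1 exceeded its highest white library by little. TRINITY_DN10104_c0_g1 passed under quantile normalization and without white replicate 2, and TRINITY_DN10216_c0_g1 passed without brown replicate 1. Both are short pieces. They lie in assembly clusters of their own, and whether they are pieces of the long ABCC3 transcript or other genes is not known.

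**Figure D2:**
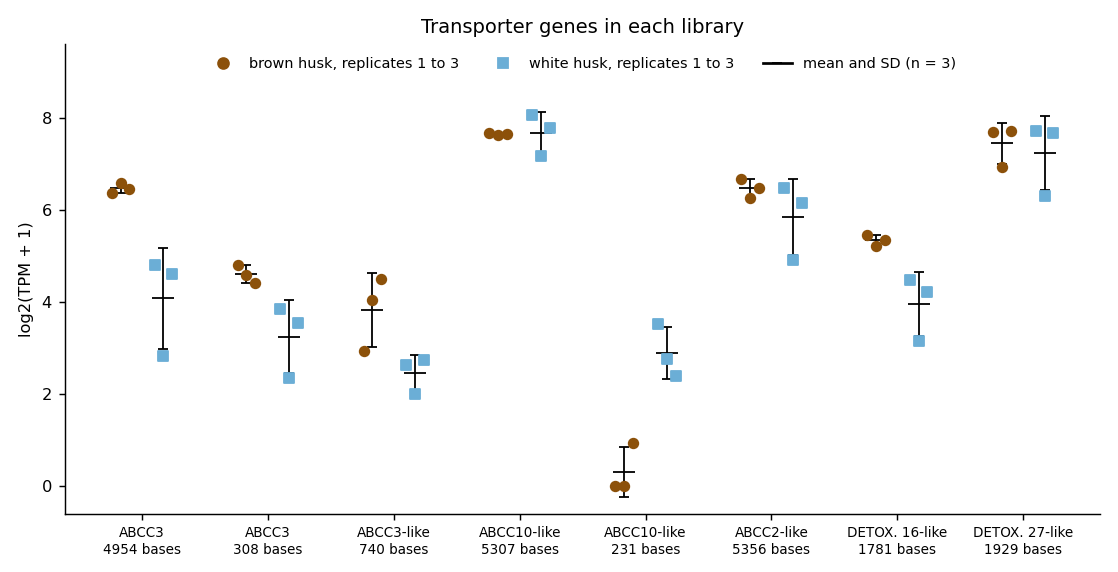
Level in log2(TPM + 1) (vertical axis) of 8 transporter genes (horizontal axis) in brown husk (circles) and white husk (squares), replicates 1 to 3 from left to right, with the mean and SD of each group of 3. The brown libraries of the 3 ABCC3 genes and of DETOXIFICATION 16-like lie above their white libraries, those of the 231-base ABCC10-like fragment lie below, and white replicate 2 is the lowest white library of the other 7 genes.

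The gene that fell, TRINITY_DN9633_c0_g1, is a 231-base fragment described as ABCC10-like. It was listed at 0, 0 and 0.92 TPM in brown husk and at 10.4, 5.76 and 4.25 TPM in white husk (log2 fold change -2.57 ± 0.44, limma adjusted p = 0.01845). The groups did not overlap, and the call was lost without brown replicate 1 or 2 (adjusted p = 0.0574 and 0.07605). It has 12 namesakes, 223 to 5307 bases long, and of the 13 ABCC10-like genes 5 had a positive and 8 a negative log2 fold change. The longest, TRINITY_DN16064_c3_g1 (5307 bases), was the most abundant ABCC gene, with 204, 197 and 198 TPM in brown husk and 266, 143 and 217 TPM in white husk. The brown values lay inside the white range (log2 fold change -0.02 ± 0.23, limma adjusted p = 0.973). Other namesakes, picked out afterwards, had lower values in brown husk without passing. TRINITY_DN9453_c0_g1 (4082 bases) had 2.19, 0.51 and 1.34 TPM in brown husk and 8.87, 0.64 and 6.04 TPM in white husk, overlapping through white replicate 2 (log2 fold change -1.11 ± 0.69, limma adjusted p = 0.400, or -1.89 and 0.0577 without that library). TRINITY_DN10215_c0_g1 (320 bases) had 1.51, 3.38 and 4.06 TPM in brown husk and 5.39, 7.40 and 7.42 TPM in white husk, with no overlap (log2 fold change -1.01 ± 0.34, limma adjusted p = 0.139). TRINITY_DN9986_c0_g1 (223 bases) had 3.84, 3.19 and 1.99 TPM in brown husk and 9.07, 3.14 and 9.23 TPM in white husk, and passed without white replicate 2 (log2 fold change -1.37, limma adjusted p = 0.0496, against -0.94 and 0.251 with it).

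ABCC2-like (TRINITY_DN14776_c0_g2), whose Arabidopsis counterpart is a vacuolar pump for glutathione conjugates and phytochelatins, had 100, 75.6 and 88.0 TPM in brown husk and 88.2, 29.2 and 70.3 TPM in white husk. Its groups overlapped (log2 fold change 0.61 ± 0.38, limma adjusted p = 0.399). In brown husk the mean TPM of ABCC3 and ABCC2-like were nearly the same, at 87.6 and 87.9, while in white husk they were 18.8 and 62.6. That difference between the 2 genes was not tested. A few further long ABCC genes were picked out after their values were seen. ABCC14 (TRINITY_DN15854_c1_g1) had 35.1, 30.2 and 32.4 TPM in brown husk and 28.4, 8.16 and 22.4 TPM in white husk, with no overlap (log2 fold change 0.86 ± 0.40, limma adjusted p = 0.272). ABCC5 (TRINITY_DN12999_c2_g5), a phytate transporter in Arabidopsis, had 7.06, 11.99 and 8.10 TPM in brown husk and 5.35, 5.34 and 4.45 TPM in white husk, also apart (log2 fold change 0.71 ± 0.25, limma adjusted p = 0.158). ABCC8-like (TRINITY_DN11352_c0_g1) had 53.95, 35.4 and 41.4 TPM in brown husk and 51.2, 22.5 and 46.3 TPM in white husk, which overlap. Of the 27 ABCC genes 16 were shorter than 1000 bases, 17 had a log2 fold change above 0, and the family median was 0.18, or -0.18 without white replicate 2, -0.01 with TMM factors and 0.06 with quantile normalization. ABCC genes in all added up to 729, 664 and 674 TPM in brown husk and 723, 346 and 602 TPM in white husk.

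MATE genes had 39 members tested, and none passed. The number with a positive log2 fold change was 31, with a median of 0.35. Without white replicate 2 it was 24, with a median of 0.18, and with TMM factors and quantile normalization the medians were 0.23 and 0.15. The nearest to the threshold was DETOXIFICATION 16-like (TRINITY_DN12132_c1_g10), with 43.0, 36.4 and 39.6 TPM in brown husk and 21.2, 7.94 and 17.7 TPM in white husk. The groups did not overlap (log2 fold change 1.39 ± 0.33, limma adjusted p = 0.0522). Its call changed with small changes in processing, since it passed with array weights, under quantile normalization or TMM factors, at a 5 TPM filter, and without white replicate 1 or 2 (adjusted p = 0.0165 to 0.0441).

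The most abundant MATE genes did not separate the varieties. DETOXIFICATION 27-like (TRINITY_DN14330_c1_g2) had 204, 121 and 207 TPM in brown husk and 210, 77.5 and 203 TPM in white husk (log2 fold change 0.21 ± 0.41, limma adjusted p = 0.805). The second library was the low one in both groups. DETOXIFICATION 40-like (TRINITY_DN12896_c1_g2) had 94.9, 58.0 and 92.9 TPM in brown husk and 90.9, 67.8 and 86.3 TPM in white husk (log2 fold change -0.02 ± 0.22, limma adjusted p = 0.973).

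Several MATE genes with known roles were picked out after their values were seen. DETOXIFICATION 41 is TT12 of Arabidopsis, which loads tannin precursors into the vacuole of the seed coat. Its 2 namesakes share an assembly cluster. TRINITY_DN13686_c1_g3 had 6.95, 14.0 and 12.8 TPM in brown husk and 10.6, 4.21 and 9.02 TPM in white husk, and TRINITY_DN13686_c1_g4 had 3.58, 12.2 and 9.66 TPM in brown husk and 4.97, 2.77 and 4.28 TPM in white husk. In both, brown replicate 1 lay within the white range while brown replicates 2 and 3 lay above it, and neither passed (limma adjusted p = 0.509 and 0.327). DETOXIFICATION 18-like (TRINITY_DN15433_c0_g1), whose Arabidopsis counterpart exports hydroxycinnamic acid amides, had 28.8, 28.4 and 32.8 TPM in brown husk and 32.2, 20.8 and 28.2 TPM in white husk, which overlap. DETOXIFICATION 35 (TRINITY_DN1224_c0_g1), which acts in flavonoid transport in Arabidopsis, had 2.03, 2.12 and 2.42 TPM in brown husk and 1.73, 0.91 and 1.37 TPM in white husk. Its brown libraries lay above the white ones at a low level (log2 fold change 0.46 ± 0.31, limma adjusted p = 0.434). DETOXIFICATION 42 (TRINITY_DN13672_c1_g2), a citrate exporter in Arabidopsis, had 10.6, 9.59 and 11.6 TPM in brown husk and 16.2, 3.36 and 11.8 TPM in white husk, also overlapping.

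On the lower side, also picked out afterwards, DETOXIFICATION 52 (TRINITY_DN12945_c2_g1) had 1.94, 1.99 and 1.69 TPM in brown husk and 4.51, 4.44 and 4.14 TPM in white husk. The replicates were tight and the groups far apart for so low a gene, yet it did not pass (log2 fold change -0.90 ± 0.27, limma adjusted p = 0.101). Under quantile normalization and without the mean-variance trend it did pass. DETOXIFICATION 44 (TRINITY_DN11338_c0_g1), with a chloroplast form of the name, had 3.17, 3.71 and 3.29 TPM in brown husk and 7.24, 4.79 and 6.65 TPM in white husk (log2 fold change -0.71 ± 0.26, limma adjusted p = 0.166). This gene passed with TMM factors and under quantile normalization. DETOXIFICATION 25-like (TRINITY_DN15638_c0_g2) had 13.1, 9.51 and 11.8 TPM in brown husk and 32.5, 8.52 and 22.5 TPM in white husk. Its groups overlapped only through white replicate 2, and without that library the log2 fold change was -1.18 ± 0.21 (limma adjusted p = 0.0347), against -0.66 ± 0.43 with it (adjusted p = 0.428). In the other direction, of 4 DETOXIFICATION 33-like genes, which share a cluster, 3 were tested and none passed. The longest, TRINITY_DN13519_c0_g9 (1742 bases), had a log2 fold change of 0.33, with overlapping groups (limma adjusted p = 0.461). Pieces of 284 and 264 bases had 1.56 and 1.36 (limma adjusted p = 0.119 and 0.27). Their means were low, at 3.69 and 3.25 TPM in brown husk and 0.55 and 0.75 TPM in white husk.

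**Figure D3:**
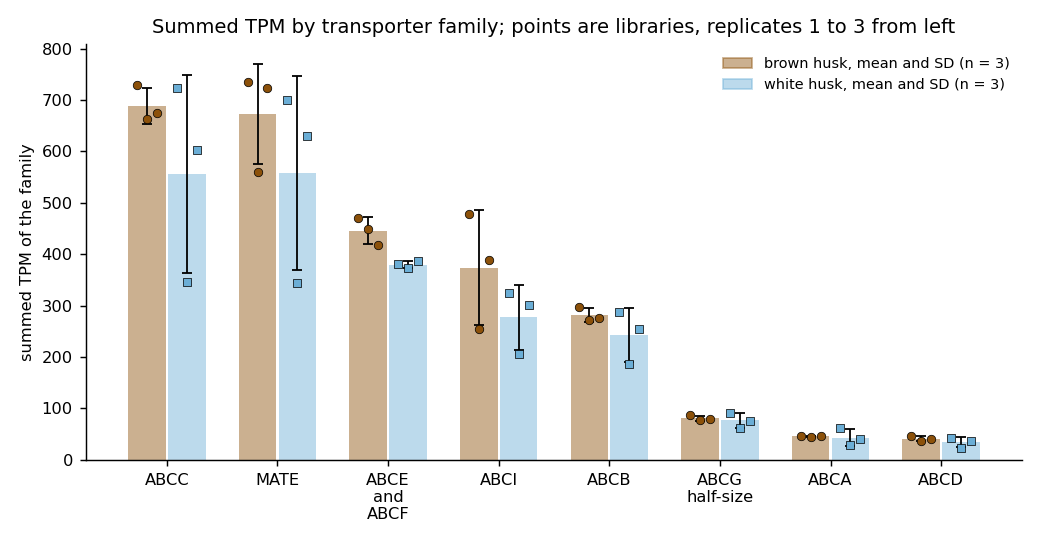
Summed TPM (vertical axis, from 0) of the genes of each family (horizontal axis) in brown husk and white husk, with bars for the mean, error bars for the SD of 3 libraries and points for the libraries. The ABCC and MATE sums are highest, and the brown and white points overlap in every family shown except ABCE and ABCF, where brown lies above white.

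ABCB genes include auxin exporters at the plasma membrane and organelle proteins. None of 29 passed, and 17 had a positive log2 fold change, with a median of 0.28. That median was 0.15 without white replicate 2, 0.08 with TMM factors and 0.05 with quantile normalization. The highest was ABCB27-like (TRINITY_DN14666_c0_g2), whose Arabidopsis counterpart sits in the vacuolar membrane and acts in aluminium tolerance. It had 67.8, 53.4 and 55.7 TPM in brown husk and 91.4, 67.3 and 76.4 TPM in white husk (log2 fold change -0.40 ± 0.16, limma adjusted p = 0.216). The brown libraries were lower but for brown replicate 1, which just exceeded white replicate 2. Among the alternatives the gene passed with TMM factors only. ABCB19 (TRINITY_DN10433_c0_g1), an auxin exporter in Arabidopsis, had 33.3, 24.8 and 33.9 TPM in brown husk and 32.8, 15.5 and 29.9 TPM in white husk (limma adjusted p = 0.620).

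A 423-base ABCB4-like fragment (TRINITY_DN12974_c4_g1), named after an Arabidopsis auxin transporter, had 25.8, 21.3 and 27 TPM in brown husk and 11.4, 4.30 and 12.2 TPM in white husk. The groups did not overlap (log2 fold change 1.42 ± 0.35, limma adjusted p = 0.0611), and it passed without white replicate 2 (log2 fold change 1.002 ± 0.14, adjusted p = 0.0207). The fragment also passed with array weights, under quantile normalization or TMM factors, and at a 5 TPM filter. A longer relative, ABCB21-like (TRINITY_DN14791_c0_g2, 4436 bases), is given here after its values were seen. It had 34.9, 35.8 and 33.0 TPM in brown husk and 24.9, 9.77 and 19.4 TPM in white husk (log2 fold change 0.99 ± 0.31, limma adjusted p = 0.113). Without white replicate 2 its log2 fold change was 0.63 ± 0.13 (limma adjusted p = 0.0540). It lies in the largest cluster described above, so its TPM is uncertain. The ABCB4-like fragment and this ABCB21-like gene were higher in each brown library than in any white one. In the other ABCB21-like gene (TRINITY_DN11665_c1_g1, 2019 bases) the groups overlapped (log2 fold change -0.0046 ± 0.35, limma adjusted p = 0.996). Of the 29 ABCB genes tested, 8 had every brown library above the white ones and 1 had every brown library below, beside 20.2% and 8.85% of all tested genes.

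ABCA proteins are thought to move lipids. Of 6 genes none passed. ABCA2-like (TRINITY_DN12421_c0_g2, 3134 bases) was among the 8 genes past the threshold without white replicate 2. This gene also passed under quantile normalization or TMM factors, and at a 5 TPM filter. It had 11.6, 12.3 and 12.7 TPM in brown husk and 20.9, 17.5 and 18.2 TPM in white husk, with no overlap (log2 fold change -0.58 ± 0.15, limma adjusted p = 0.0729, or 0.0475 without white replicate 2). ABCA1 (TRINITY_DN13871_c0_g4), the longest gene of all, had 21.8, 19.4 and 21.0 TPM in brown husk and 21.4, 8.84 and 17.97 TPM in white husk (adjusted p = 0.460). ABCD2 (TRINITY_DN10766_c1_g1) had 9.34, 5.56 and 7.35 TPM in brown husk and 8.92, 4.88 and 7.57 TPM in white husk. The groups overlapped (limma adjusted p = 0.928).

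ABCE and ABCF proteins lack membrane segments and act in translation rather than transport. Their 8 genes added up to 470, 450 and 417 TPM in brown husk and 381, 373 and 386 TPM in white husk, which do not overlap. White replicate 2 was close to the other white libraries here. None of the 8 passed, and 7 had a log2 fold change above 0. Their median was 0.28 both with and without white replicate 2, or 0.11 with TMM factors and 0.16 with quantile normalization. ABCE2 (TRINITY_DN14896_c2_g1), which splits ribosomes after termination, had 148, 165 and 143 TPM in brown husk and 121, 155 and 131 TPM in white husk (log2 fold change 0.17 ± 0.15, limma adjusted p = 0.555, and -0.04 with TMM factors). ABCF5-like (TRINITY_DN14223_c1_g1) had 122, 93.1 and 97.8 TPM in brown husk and 72.9, 74.8 and 74.2 TPM in white husk. Its white libraries were within 2 TPM of each other and below every brown one (log2 fold change 0.48 ± 0.14, limma adjusted p = 0.103).

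ABCG genes of the short, single-unit kind (members up to number 28) act as pairs and carry lipids and hormones. None of 12 passed. The most abundant were ABCG7 (TRINITY_DN10873_c0_g1), with 18.9, 13.4 and 16.97 TPM in brown husk and 13.4, 14.1 and 14.8 TPM in white husk, and ABCG3 (TRINITY_DN13180_c3_g6), with 13.0, 13.5 and 13.9 TPM in brown husk and 14.5, 11.5 and 14.5 TPM in white husk. Both overlapped. ABCG14-like (TRINITY_DN13521_c0_g5), picked out afterwards as the counterpart of an Arabidopsis exporter of cytokinin, had 9.15, 5.68 and 7.66 TPM in brown husk and 17.3, 6.34 and 13.7 TPM in white husk, overlapping through white replicate 2 (limma adjusted p = 0.403). The only gene of the long kind, ABCG36-like (TRINITY_DN6419_c0_g1), counterpart of the Arabidopsis defence transporter PEN3, was near the lower end, with 0.70, 1.23 and 1.16 TPM in brown husk and 2.51, 1.20 and 2.08 TPM in white husk (limma adjusted p = 0.423).

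Long ABCG proteins are also called pleiotropic drug resistance proteins, and genes with that name fall outside the 136. Of 10 genes named ABC or MATE by their Swiss-Prot description only, 2 rose and none fell, beside 3.83% and 2.17% of all tested genes. With TMM factors 1 rose and 1 fell, and without white replicate 2 the counts were 3 and 0. A 464-base pleiotropic drug resistance protein 1-like gene (TRINITY_DN11255_c0_g1) had 397, 362 and 313 TPM in brown husk and 208, 140 and 165 TPM in white husk (log2 fold change 1.07 ± 0.19, limma adjusted p = 0.0214). A 624-base gene of the same description (TRINITY_DN11063_c0_g1) had 47.4, 51.9 and 54.9 TPM in brown husk and 20.9, 25.0 and 28.01 TPM in white husk (log2 fold change 1.04 ± 0.15, limma adjusted p = 0.0114). In both genes every brown library lay above every white one, and both are far shorter than a whole transporter of this kind. Whether they are pieces of 1 transcript is not known. The longest of the 10, pleiotropic drug resistance protein 2 (TRINITY_DN15509_c0_g10, 5137 bases), was picked out afterwards. It had 24.8, 20.4 and 23.2 TPM in brown husk and 20.8, 13.6 and 20.6 TPM in white husk, which overlap (limma adjusted p = 0.4095).

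ABCI genes encode single ABC subunits, many of them in organelles. None of 8 passed, and 3 had a positive log2 fold change, with a median of -0.09, or -0.28 with TMM factors and -0.24 with quantile normalization. The most abundant of all 136 genes was ABCI17-like (TRINITY_DN14266_c0_g6), counterpart of the rice aluminium tolerance gene STAR1. It had 349, 147 and 275 TPM in brown husk and 198, 85.9 and 178 TPM in white husk (log2 fold change 0.74 ± 0.41, limma adjusted p = 0.350). The second library was the lowest of each group, and brown replicate 2 lay within the white range. Its neighbour in the same cluster, TRINITY_DN14266_c0_g7, also ABCI17-like, had 22.5, 9.58 and 20.9 TPM in brown husk and 24.1, 25.5 and 24.3 TPM in white husk, with every brown library lower (limma adjusted p = 0.351). It was picked out afterwards. ABCI1 (TRINITY_DN13631_c0_g2), of mitochondrial cytochrome c maturation, had 26.8, 23.8 and 21.2 TPM in brown husk and 27.4, 29 and 19.4 TPM in white husk, which overlap.

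Proton pumps set the gradients that MATE proteins use, and none of their genes passed. For the vacuole these were 33 genes, of which 15 had a positive log2 fold change, beside 64.3% of all tested genes. With TMM factors 8 were positive. The list was made by description and includes a gene whose main description is a purple acid phosphatase (TRINITY_DN14522_c2_g1). The highest, a V-type proton ATPase subunit G-like gene (TRINITY_DN11452_c4_g2), had 335, 367 and 319 TPM in brown husk and 375, 511 and 408 TPM in white husk (limma adjusted p = 0.340). At the plasma membrane 9 genes were tested, of which 7 had a positive log2 fold change, or 6 with TMM factors. Their median was 0.50, or 0.30 without white replicate 2. The highest, plasma membrane ATPase 4-like (TRINITY_DN15771_c1_g4), had 275, 206 and 242 TPM in brown husk and 174, 63.3 and 145 TPM in white husk, with no overlap (log2 fold change 1.03 ± 0.36, limma adjusted p = 0.155). Without white replicate 2 its log2 fold change was 0.59 ± 0.16 (limma adjusted p = 0.104). The 9 genes added up to 500, 488 and 494 TPM in brown husk and 422, 196 and 369 TPM in white husk.

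Glutathione S-transferases make the conjugates that ABCC pumps carry. The genes listed here were found by description only, and whether each makes such conjugates was not tested. Of 48 tested, 5 rose and 3 fell (5 and 4 without white replicate 2 and with TMM factors), beside 3.83% and 2.17% of all tested genes. Several of these calls were in genes described as T3-like. Among them TRINITY_DN13303_c0_g2, TRINITY_DN12711_c0_g2 and TRINITY_DN12711_c3_g2 rose, and TRINITY_DN11992_c2_g3 and TRINITY_DN11403_c2_g4 fell. A probable glutathione S-transferase (TRINITY_DN11028_c0_g1) had 249, 212 and 213 TPM in brown husk and 50.8, 46.5 and 58.2 TPM in white husk (log2 fold change 2.10 ± 0.14, limma adjusted p = 0.000642). A GST 23-like gene (TRINITY_DN6175_c0_g2) had 48.1, 51.1 and 48.4 TPM in brown husk and 16.5, 3.51 and 13.6 TPM in white husk (log2 fold change 2.26 ± 0.47, limma adjusted p = 0.0360). In both the groups lay well apart, and in the GST 23-like gene white replicate 2 was again the lowest. Another GST 23-like gene (TRINITY_DN17125_c0_g1), picked out afterwards, fell, with 0.15, 1.75 and 0.48 TPM in brown husk and 18.2, 13.1 and 14.3 TPM in white husk (log2 fold change -3.26 ± 0.37, limma adjusted p = 0.00497). Genes of the same description thus moved in opposite directions.

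Among other transporters of small organic molecules few genes passed, where 3.83% of all tested genes rose and 2.17% fell. Of 21 WAT1-related genes, a family with a vacuolar auxin exporter in Arabidopsis, 1 fell and none rose, or 2 fell without white replicate 2 and with TMM factors. The gene that fell, At3g28050-like (TRINITY_DN12292_c0_g1), had 4.13, 3.16 and 4.91 TPM in brown husk and 22.3, 8.90 and 17.2 TPM in white husk (log2 fold change -1.68 ± 0.34, limma adjusted p = 0.0329). Of 7 purine permease genes 1 rose, a 223-base fragment (TRINITY_DN2316_c0_g1) with 7.68, 8.50 and 3.98 TPM in brown husk and 2.27, 0.79 and 0.92 TPM in white husk (limma adjusted p = 0.0468, or 0.0923 without white replicate 2). Of 37 nitrate and peptide transporter genes of the NRT1/PTR family 1 rose, NRT1/PTR 2.11-like (TRINITY_DN14953_c0_g1), named after an Arabidopsis glucosinolate importer, with 9.26, 13.1 and 10.5 TPM in brown husk and 5.02, 3.70 and 4.72 TPM in white husk (limma adjusted p = 0.0330).

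**Figure D4:**
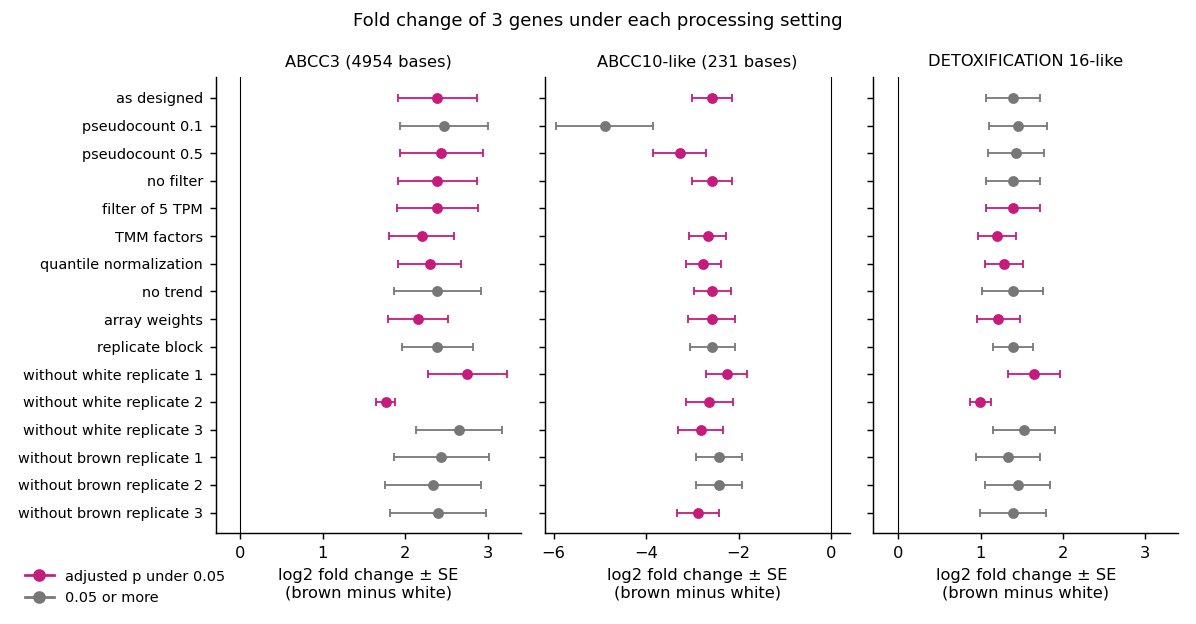
Log2 fold change (brown minus white, horizontal axes, which differ between panels) with its SE for ABCC3, the 231-base ABCC10-like fragment and DETOXIFICATION 16-like, under the designed fit and each alternative (rows). All 3 genes keep their direction in every row, while the adjusted p crosses 0.05 in both directions, and the fragment was not tested with a filter of 5 TPM.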

How the data were processed

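Total RNA from frozen husk went into standard Illumina libraries, per the labels' protocols. The submitters' processing notes name the tools FastQC and cutadapt. The gene identifiers deposited by the authors carry the name of the assembler Trinity. The quantifier is not given in the sources used here. What the authors deposited is 1 table of TPM per assembled gene and library, together with gene length and descriptions. Columns sum to between 994877 and 996692 TPM.

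TPM were transformed as log2(TPM + 1). A gene was tested where 3 or more of the 6 libraries reached 1 TPM, which kept 133 of the 136 transporter genes. Brown was compared with white by limma 3.58.1 in R 4.3.3, with a mean-variance trend and no covariates, over all 37829 genes, with Benjamini-Hochberg adjustment. A gene is said to have risen or fallen at an adjusted p under 0.05, and the pseudocount makes log2 fold changes of low genes too small. No label says that libraries came from separate trees, so p-values measure only the spread between these libraries, which may be technical.

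The transporter genes and the lists were chosen with earlier results of these data known. Named genes are those past the threshold, the 2 with the highest mean TPM in each family, those listed at 0 throughout 1 group and those sharing an assembly cluster with a gene past the threshold (there were none of either), and the 3 most abundant with an adjusted p within 0.05 above it. From each other list the 2 most abundant genes past the threshold are named, or the most abundant one where none passed. Others are said to be picked afterwards. Surface markers (searched as protodermal factor, 3-ketoacyl-CoA synthase, CER1 and ABCG11) had 1 gene higher and 1 lower of 19. Without white replicate 2 these counts were 1 and 3, and with TMM factors 2 and 2. Their summed TPM was 286, 403 and 355 in brown husk and 624, 348 and 526 in white husk, overlapping through white replicate 2. The part of these markers in the results was not tested. The fit was also run on simulated data with the same noise in every library. Those data hold no outlying library such as white replicate 2, so that run cannot show how the fit treats it. The values of 1 gene that this rule names are not reported here.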

Additional observations from a re-analysis of the deposited data

How the results depend on the processing

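The counts of transporter genes past the threshold were small and moved with the processing. As designed, 1 was higher and 1 lower in brown husk. A pseudocount of 0.1 or the replicate number as a block gave 0 and 0, a filter of 5 TPM and array weights 3 and 1, TMM factors 3 and 4, quantile normalization 4 and 4, and no trend 0 and 2. Leaving out 1 library gave 0 to 4 higher and 0 to 4 lower, the most without white replicate 2. A pseudocount of 0.5 and no filter kept both counts. The median log2 fold change of the transporter genes moved between 0.09 and 0.40.

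ABCC3 passed in 8 of 15 alternatives, with a log2 fold change of 1.76 to 2.75. The 231-base ABCC10-like fragment passed in 10 of 14, with -4.89 to -2.26. Both directions held throughout. With the replicate block their adjusted p were 0.0547 and 0.0593. Same-numbered libraries deviated together only weakly (r = 0.0572, 0.0561 and 0.0109 across genes), although each correlated best with its own number. With 3 libraries in each group these values cannot show whether same-numbered libraries were handled together, and no label says so.

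Among the 23 named transporter genes, 291 of the values under the alternatives kept direction and side of the threshold, 18 gained a call, 11 lost one and 23 changed sign. Changes of sign occurred only in genes whose log2 fold change as designed was at most 0.2815 in size. TMM factors gave ABCE2 -0.036, ABCG3 -0.19 and ABCD2 -0.12. Quantile normalization gave ABCG3 -0.13 and ABCD2 -0.15. Array weights gave DETOXIFICATION 40-like 0.0148, ABCG3 -0.0106 and ABCD2 -0.048. Leaving out 1 library gave ABCI1 -0.23 to 0.0489, DETOXIFICATION 27-like -0.25 to 0.46, DETOXIFICATION 40-like -0.15 to 0.21, ABCC10-like (5307 bases) -0.27 to 0.18, ABCG3 -0.10 to 0.0519, ABCB19 -0.0434 to 0.48 and ABCD2 -0.16 to 0.23. The cause was not tested.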
